A study of Mus musculus with 4 samples.

Results

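The 9 genes described here encode the enzymes that lead from acetyl groups through mevalonate to lanosterol, the step of cholesterol synthesis just upstream of Cyp51: Hmgcs1, Mvk, Pmvk, Mvd, Idi1, Fdps, Fdft1, Sqle and Lss. They were taken by gene symbol, and all 9 were found among the 32285 genes of each library. Hearts of mouse embryos at E10.5 were treated with collagenase and dissociated, and red blood cells were then lysed. Single-cell libraries of mRNA 3′ ends were made on a droplet platform. The labels give the strain C57BL/6J for all 4 libraries. Wild-type (Wt) embryos gave 2 of them, named here Wt1 and Wt2. Embryos homozygous for Cyp51 I383V (Ho), a single amino acid substitution introduced into the germline by CRISPR/Cas9 and therefore carried by every cell, gave the libraries Ho1 and Ho2. The labels name CRISPR/Cas9 as treatment for the wild-type samples too. How many hearts entered each library was not given in the sources used here, so p-values of Ho against Wt measure the spread between these libraries only. Comparisons of cells within libraries removed library differences by a block, and their p-values measure the spread that remains.

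Hmgcs1 makes HMG-CoA and so acts before mevalonate. Mvk and Pmvk phosphorylate mevalonate in turn, Mvd decarboxylates the product to isopentenyl diphosphate, and Idi1 isomerizes it to dimethylallyl diphosphate. Fdps joins these units to farnesyl diphosphate, the branch point to protein prenylation, dolichol and ubiquinone. Fdft1 (squalene synthase), Sqle (squalene epoxidase) and Lss (lanosterol synthase) are committed to sterols, and Cyp51 then removes a methyl group from lanosterol. Genes of this pathway are known targets of SREBP-2, a membrane-bound transcription factor that is released when sterols in the endoplasmic reticulum are low and that binds sterol regulatory elements beside sites for NF-Y (CCAAT boxes) and Sp1 (GC boxes).

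On GRCm38, in GENCODE M21, Hmgcs1 spans chr13:119690379-119708260 and Idi1 chr13:8885501-8892451. Mvk spans chr5:114444269-114460591, Pmvk chr3:89454541-89469013, Mvd chr8:122433601-122443422 and Fdps chr3:89093588-89101959. Fdft1 spans chr14:63145150-63179578, Sqle chr15:59315077-59331192 and Lss chr10:76531588-76557138. A UMI of this assay marks a molecule near the 3′ end of its mRNA, is counted on the sense strand and does not grow with gene length. The genes that overlap Fdps on its own strand are not among the features of the files, and the other overlaps lie on the opposite strand.

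Promoter sequences show which elements the members share. RefSeq promoters (GRCm38.p6) were matched for 6 of the 9 members and for Cyp51, and the 250 bases before the start site were searched on both strands for TCACNCCAC (a form of the sterol regulatory element), CCAAT and GGGCGG (a GC box). Of 32851 promoter windows of this length, 1.05% held TCACNCCAC, 33.8% CCAAT and 32.7% GGGCGG. Among the 6 members, 1 (Hmgcs1) held TCACNCCAC, all 6 held CCAAT and 5 held GGGCGG, and Pmvk, with 2 annotated start sites, held a CCAAT at the first of them only. The windows of Hmgcs1, with the only TCACNCCAC, of Mvk, with 5 CCAAT matches, and of Idi1 and Mvd, the members that differed most between cell classes, are printed 5′ to 3′ with the matches in capitals. The window of Hmgcs1 is chr13:119690101-119690350 and that of Idi1 chr13:8885356-8885605, both on the plus strand. That of Mvk is chr5:114444019-114444268 on the plus strand and that of Mvd chr8:122443423-122443672 on the minus strand.
Hmgcs1: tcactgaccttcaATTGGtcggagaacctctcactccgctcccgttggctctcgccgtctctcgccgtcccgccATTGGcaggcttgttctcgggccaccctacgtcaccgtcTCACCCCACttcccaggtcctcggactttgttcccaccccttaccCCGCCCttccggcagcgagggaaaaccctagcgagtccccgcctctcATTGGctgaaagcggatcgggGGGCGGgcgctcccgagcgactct
Mvk: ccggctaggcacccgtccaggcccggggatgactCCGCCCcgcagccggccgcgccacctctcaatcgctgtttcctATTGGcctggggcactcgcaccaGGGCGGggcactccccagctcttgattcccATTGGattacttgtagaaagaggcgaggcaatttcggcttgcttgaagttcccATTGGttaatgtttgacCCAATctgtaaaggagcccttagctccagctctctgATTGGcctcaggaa
Mvd: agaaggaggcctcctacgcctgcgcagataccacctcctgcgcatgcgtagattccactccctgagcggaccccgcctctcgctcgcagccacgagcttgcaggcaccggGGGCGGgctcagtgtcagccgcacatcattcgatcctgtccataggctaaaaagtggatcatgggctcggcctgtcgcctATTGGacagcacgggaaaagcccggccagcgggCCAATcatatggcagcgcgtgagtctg
Idi1: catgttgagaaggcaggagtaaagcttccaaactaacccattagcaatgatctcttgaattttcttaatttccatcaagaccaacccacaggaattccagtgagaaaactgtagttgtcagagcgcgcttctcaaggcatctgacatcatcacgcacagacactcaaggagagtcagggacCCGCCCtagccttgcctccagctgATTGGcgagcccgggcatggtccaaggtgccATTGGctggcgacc
In Hmgcs1 the sterol element lies 137 to 129 bases before the start, between CCAAT matches on the minus strand. In Mvd and Idi1 the last CCAAT match lies within 27 and 14 bases of the start. A match is a string of letters and not a measured binding site, and no chromatin data were analysed here.

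The files held 109893733 UMIs for Wt1, 117034633 for Wt2, 127018819 for Ho1 and 107377100 for Ho2. After the limits on cells and the removal of doublets, 29168 of 33589 barcodes were used, with a median of 10551.5, 14231, 15662.5 and 15843 UMIs per cell in Wt1, Wt2, Ho1 and Ho2. Between 9 and 29 barcode sequences were shared by any pair of libraries. The libraries also differed in sex. Ho1 held 28888 UMIs of Xist, while Wt1 held 5, Wt2 4 and Ho2 2. For 4 Y-linked genes together Ho1 held 0 UMIs and the others 8797 (Wt1), 9908 (Wt2) and 9657 (Ho2), so sex cannot be told apart from any trait of Ho1 alone.

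Cells were assigned to a class by 6 marker genes, which placed 23235 of the 29168 cells. A cell positive for exactly 1 of Tnnt2, Cdh5, Upk3b and Epcam took that class, whether or not it was positive for Hapln1 or Crabp1, and cells positive for none of these 4 took the class Hapln1 or Crabp1 when positive for 1 of the pair. Tnnt2, the cardiac troponin T of the sarcomere, gated 10152 cells, and Cdh5, the endothelial VE-cadherin, gated 4978. Hapln1, a hyaluronan link protein of the cardiac cushions, gated 3385 cells, Crabp1, a retinoic acid binding protein of neural crest and pharyngeal mesenchyme, 3242, and Upk3b, a uroplakin of the mesothelium and epicardium, 634. The gates were compared with further markers of each class, leaving out the gene that set the gate. The other 8 markers of heart muscle, such as Myl7, summed to 46673 ± 1477 CPM (SD, n = 4) in Tnnt2-gated cells and to at most 3242 CPM on average in the other classes compared. The other 5 markers of epicardium, such as Upk1b and Tcf21, summed to 1567 ± 131 CPM in Upk3b-gated cells and to at most 93.7 CPM on average elsewhere. The other 7 endothelial markers summed to 1718 ± 99.2 CPM in Cdh5-gated and 499 ± 80.9 CPM in Hapln1-gated cells, and Hapln1 itself stood at 477 CPM in Cdh5-gated cells. Of the Cdh5-gated cells 80.5% were Hapln1-positive too, as were 36.0% of Upk3b-gated and 1.38% of Tnnt2-gated cells, so the Hapln1 class is the Hapln1-positive cells outside the other gates. Levels in CPM are UMIs of the summed cells, scaled to a common total with TMM factors.

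The Crabp1 gate was uneven. It held 2320 cells of Wt1, 488 of Wt2, 395 of Ho2 and 39 of Ho1, and the 7 markers of the class other than Crabp1 summed to 261, 147, 194 and 114 CPM in the same order. The 7 markers of the Hapln1 class other than Hapln1 summed to 792, 856, 807 and 1553 CPM in these cells, so that Ho1 lay within the range of Hapln1-gated cells (1459 to 1565 CPM). Of its neural crest markers, Tfap2a and Dlx2 averaged only 5.96 and 8.80 CPM, below Foxf1 (45.2 CPM), so the class is called by its gate. Epcam-gated (epithelial) cells numbered 427, 168 and 249 in Wt1, Wt2 and Ho2 and 0 in Ho1, so they were left out of every test.

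Across the 5 classes compared, the mean summed level of the 9 members was highest in Tnnt2-gated cells and lowest in Hapln1-gated cells. In Tnnt2-gated cells the sum was 767 and 753 CPM in the Wt libraries and 801 and 829 CPM in the Ho libraries. In Hapln1-gated cells it was 453 and 484 CPM (Wt1, Wt2) and 477 and 492 CPM (Ho1, Ho2), and further values follow this order. Upk3b-gated cells (634, 672, 752 and 804 CPM) and Crabp1-gated cells (835, 635, 532 and 828 CPM) overlapped the range of Tnnt2-gated cells, whereas Cdh5-gated cells, at 585, 565, 593 and 591 CPM, lay between Tnnt2-gated and Hapln1-gated cells with no overlap. Fdps had the most UMIs of the 9 in each of these classes and Lss the fewest.

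**Figure D1:**
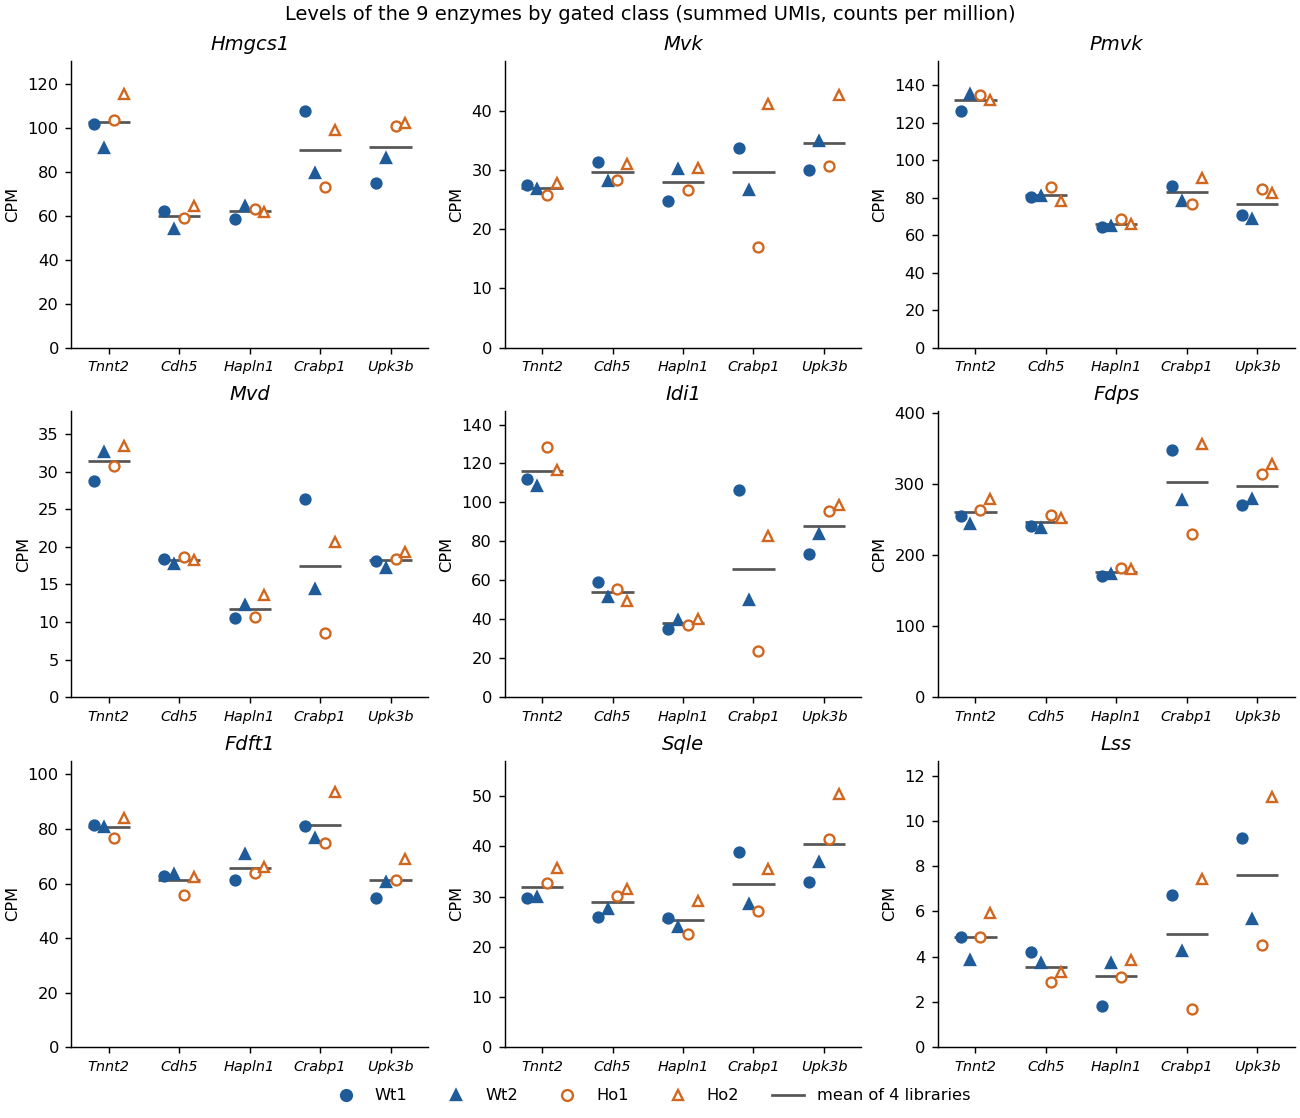
Level of each of the 9 enzymes in CPM (vertical axis from 0) in the 5 gated classes (horizontal axis), with 1 point per library (blue filled, Wt; orange open, Ho; circle, replicate 1; triangle, replicate 2) and a bar at the mean of 4 libraries. Pmvk, Mvd and Idi1 stand clear of every other class in Tnnt2-gated cells, Hapln1-gated cells hold the lowest mean for 6 members, and the Crabp1-gated sums are spread widely for several members, with Idi1 between 23.8 and 106 CPM.

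Tnnt2-gated cells were set apart by 3 of the members, Idi1, Pmvk and Mvd. Idi1 stood at 112, 109, 128 and 117 CPM in Wt1, Wt2, Ho1 and Ho2 against 35.1, 39.9, 36.9 and 40.1 CPM in Hapln1-gated cells, and Pmvk at 126, 136, 135 and 132 CPM against 64.5, 65.0, 68.5 and 65.7 CPM. Mvd had 28.8, 32.6, 30.8 and 33.4 CPM in Tnnt2-gated cells and 10.6, 12.3, 10.7 and 13.6 CPM in Hapln1-gated cells. For each of these 3 genes the lowest library of the Tnnt2 gate lay above the highest library of every other class compared.

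Each class was tested against the unweighted mean of the other 4 with edgeR's quasi-likelihood test on sums per library and class, with the library as a block and Benjamini-Hochberg adjustment over 14171 genes. In Tnnt2-gated cells 5 members were higher. These were Idi1 (log2 fold change 0.92 ± 0.12, SE, adjusted p = 1.57e-06), Mvd (0.89 ± 0.09, adjusted p = 3.9e-08), Pmvk (0.77 ± 0.04, adjusted p = 7.12e-12), Hmgcs1 (0.44 ± 0.07, adjusted p = 7.84e-06) and Fdft1 (0.26 ± 0.05, adjusted p = 8.71e-05). Mvk was lower by a log2 fold change of -0.22 ± 0.08 (adjusted p = 0.0135). This call did not hold without Ho2 (-0.14, adjusted p = 0.199), with at least 10 counts in every sum (-0.15, adjusted p = 0.0633) or with cycling cells, those over a threshold of G2/M genes, left out (-0.13, adjusted p = 0.151). Fdps, Sqle and Lss were not called, with log2 fold changes of 0.03, 0.00 and 0.03 and 95% intervals from -0.10 to 0.17 for Fdps, from -0.14 to 0.14 for Sqle and from -0.28 to 0.34 for Lss. Among all genes tested, 37.7% were called higher and 35.8% lower in Tnnt2-gated cells, so a call by itself does not set a member apart, and the median log2 fold change was 0.26 over the members and 0.00 over all genes. Mvk and Pmvk, kinases that act in succession, carried opposite signs in this class.

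In Hapln1-gated cells 7 of the 9 members were lower and none was higher, against 21.2% of all genes called lower and 24.9% higher. Idi1 had the largest difference, a log2 fold change of -1.10 ± 0.15 (SE, adjusted p = 6.35e-06), followed by Mvd (-0.89 ± 0.12, adjusted p = 4.01e-06) and Lss (-0.73 ± 0.19, adjusted p = 0.00326). Fdps, at 170, 173, 181 and 181 CPM against 240, 238, 257 and 252 CPM in Cdh5-gated cells, was lower by -0.67 ± 0.07 (adjusted p = 2.17e-07). Pmvk (-0.49), Hmgcs1 (-0.47) and Sqle (-0.44) were lower as well, with adjusted p-values of 1.75e-07, 3.31e-05 and 8.31e-05. Mvk (-0.15, 95% interval -0.32 to 0.02, adjusted p = 0.137) and Fdft1 (-0.12, interval -0.23 to -0.02, adjusted p = 0.0577) did not pass. Fdft1 lay near the threshold and was called lower with RLE factors (adjusted p = 0.0331), with at least 10 counts in every sum (0.0279), with the loose gate (0.0207), without Wt2 (0.0380) and without the Ho1 sum of Crabp1-gated cells (0.0471), while its adjusted p reached 0.403 without Ho2. The median was -0.49 over the members and 0.01 over all genes tested.

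Cdh5-gated cells had the lowest mean level of Hmgcs1, with 62.3, 53.9, 58.9 and 64.3 CPM in Wt1, Wt2, Ho1 and Ho2, a range that overlapped that of Hapln1-gated cells (58.6 to 64.5 CPM). All 9 log2 fold changes were below 0 in this class, from -0.53 to -0.02, and 4 were called lower, against 29.5% of all genes lower and 31.9% higher. These were Lss (-0.53 ± 0.17, adjusted p = 0.00985), Hmgcs1 (-0.51 ± 0.07, adjusted p = 4.51e-06), Idi1 (-0.44 ± 0.14, adjusted p = 0.00917) and Fdft1 (-0.22 ± 0.05, adjusted p = 0.000775). Without Ho2 only Hmgcs1 and Fdft1 kept the call. Sqle (-0.16, adjusted p = 0.0529) lay near the threshold, and its adjusted p ran from 0.0173 in cells under the G2/M threshold to 0.162 without Ho2.

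Upk3b-gated cells had the highest mean levels of Sqle and Lss. Sqle reached 32.9, 36.9, 41.6 and 50.5 CPM in Wt1, Wt2, Ho1 and Ho2 and Lss 9.26, 5.64, 4.49 and 11.05 CPM, where Tnnt2-gated cells had 29.7 to 35.7 and 3.84 to 5.95 CPM. Both ranges overlapped. The test called 6 members higher, led by Lss (log2 fold change 0.85 ± 0.23, SE, adjusted p = 0.00494), Sqle (0.46 ± 0.09, adjusted p = 0.000267) and Idi1 (0.46 ± 0.15, adjusted p = 0.0186), with Fdps at 0.30, Mvk at 0.28 and Hmgcs1 at 0.26. Pmvk (-0.18) and Fdft1 (-0.20), both higher in Tnnt2-gated cells, were called lower. Of all genes tested, 22.2% were called higher and 22.7% lower. Lss rested on only 20, 22, 12 and 47 UMIs, and the number of members called higher was 3 without Wt2, 4 without Ho1 and 2, Fdps and Sqle, without Ho2. The calls of Pmvk and Fdft1 were lost without Wt1 and without Wt2. The call of Mvk was also lost with no filter on low counts (adjusted p = 0.0617), with no library block (0.0521) and with doublets kept (0.0541).

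In Crabp1-gated cells the libraries lay far apart for several members. Idi1 had 106 and 50.0 CPM in Wt1 and Wt2 and 23.8 and 83.0 CPM in Ho1 and Ho2, and Mvd 26.4, 14.4, 8.49 and 20.6 CPM, where the Ho1 values are 14 and 5 UMIs. Fdps (0.36 ± 0.07, adjusted p = 0.000179), Fdft1 (0.29 ± 0.06, adjusted p = 0.000193) and Hmgcs1 (0.29 ± 0.08, adjusted p = 0.0039) were called higher and no member lower, against 25.1% higher and 28.5% lower of all genes. Without Wt1 the call of Hmgcs1 was lost (0.15, adjusted p = 0.0917).

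**Figure D2:**
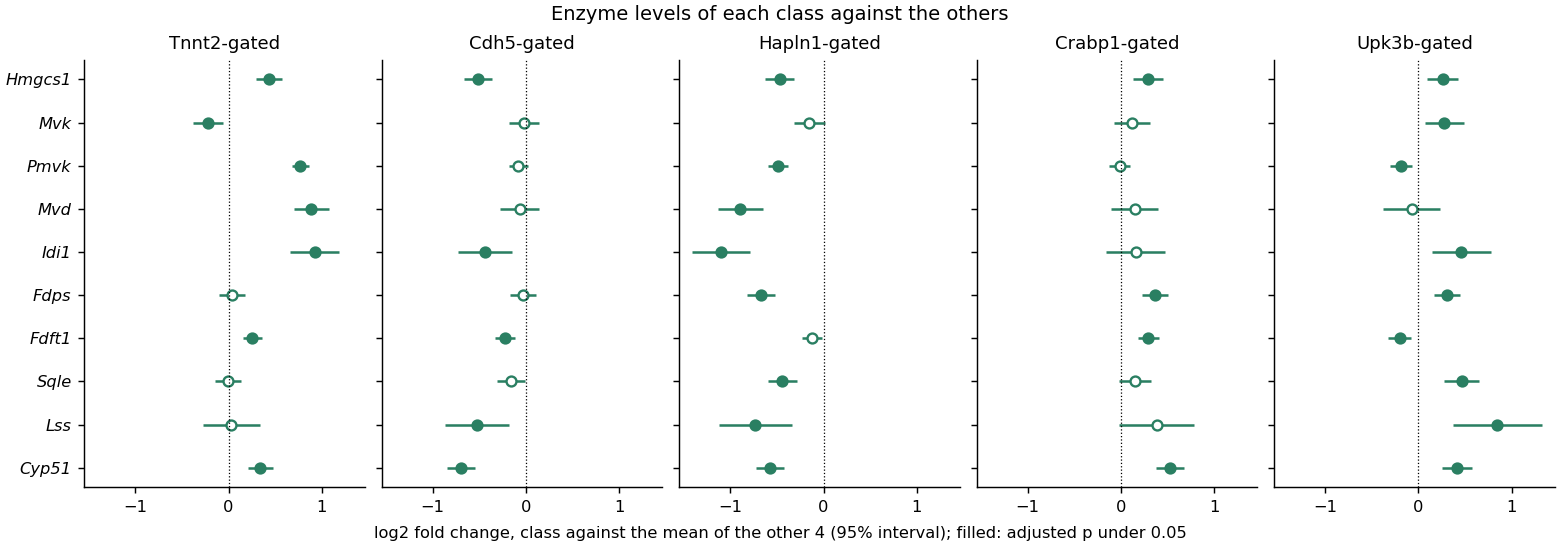
Log2 fold change of each of the 9 enzymes and of Cyp51 (vertical axis) in a class against the mean of the other 4 classes (horizontal axis), with the 95% interval as a line and filled points where the adjusted p-value is under 0.05. All points of Hapln1-gated cells lie left of 0, down to -1.10 for Idi1, and in Tnnt2-gated cells Pmvk, Mvd and Idi1 lie between 0.77 and 0.92. The 5 panels use the same sums and are not independent.

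Cyp51, the enzyme that carries the substitution, was compared with the members. Its level was 79.2, 74.9, 74.4 and 81.7 CPM in Tnnt2-gated cells of Wt1, Wt2, Ho1 and Ho2 and 48.0, 41.5, 42.3 and 40.8 CPM in Cdh5-gated cells, and the ranges did not overlap. It was lower in Cdh5-gated cells (-0.70 ± 0.07, adjusted p = 5.47e-08) and Hapln1-gated cells (-0.58 ± 0.07, adjusted p = 2.09e-06) and higher in Crabp1-gated (0.53), Upk3b-gated (0.41) and Tnnt2-gated cells (0.34). Over the 20 sums of library and class, Pearson's r of its log2 CPM with the mean standardised level of the 9 members was 0.77. Among the members, r with the mean of the other 8 was 0.91 for Idi1, 0.85 for Hmgcs1, 0.81 for Mvd, 0.79 for Fdps, 0.75 for Lss, 0.73 for Sqle, 0.59 for Pmvk, 0.48 for Mvk and 0.45 for Fdft1, so that the value of Cyp51 lay within the range of the members. These values describe 20 sums from 4 libraries that share depth and cells of origin, and no p-value applies.

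Enzymes on either side of the members were compared in the same fit. Acat2, which joins acetyl-CoA units, averaged 47.0 ± 18.8 CPM in Crabp1-gated cells, where it was higher (1.37), against 18.7 ± 1.46 CPM in Tnnt2-gated cells, where it was lower (-0.47). Of the 10 enzymes from lanosterol to cholesterol, 7 were higher and 1 lower in Tnnt2-gated cells (37.7% and 35.8% of all genes), and 1 was higher and 7 lower in Hapln1-gated cells (24.9% and 21.2% of all genes). In Tnnt2-gated cells the log2 fold change was 1.29 for Hsd17b7 and 0.61 for Msmo1, and Lbr, which also holds the nuclear lamina, was lower (-0.27). In Hapln1-gated cells Msmo1 (-1.07) and Sc5d (-0.75) were lower, while Hsd17b7 was higher (0.28). In Upk3b-gated cells 4 were higher, with Sc5d at 44.9 ± 1.41 CPM against 24.5 ± 1.34 CPM in Tnnt2-gated cells, and none was lower (22.2% and 22.7% of all genes). Cdh5-gated cells had 2 higher and 5 lower (31.9% and 29.5% of all genes), and Crabp1-gated cells 4 higher and 2 lower (25.1% and 28.5%).

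**Figure D3:**
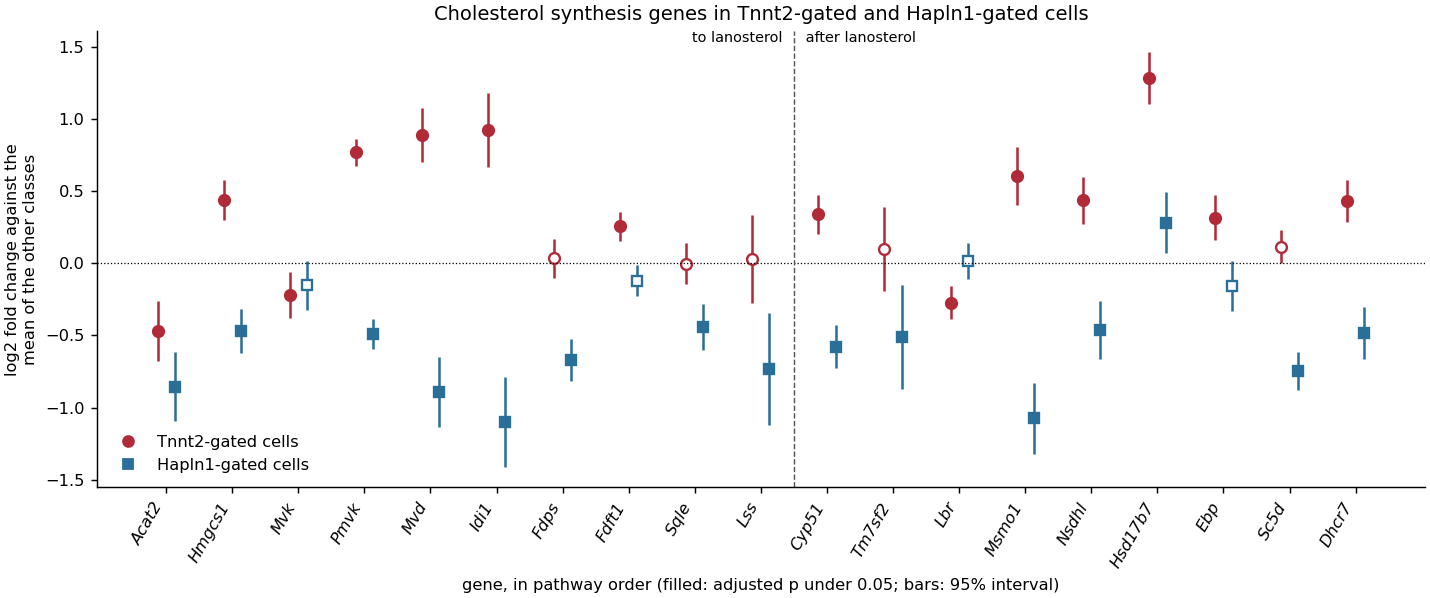
Log2 fold change against the mean of the other classes (vertical axis) for cholesterol synthesis genes in pathway order (horizontal axis), in Tnnt2-gated (red circles) and Hapln1-gated cells (blue squares), with 95% intervals as lines and filled points where the adjusted p-value is under 0.05. Pmvk, Mvd and Idi1 lie highest among the genes up to lanosterol in Tnnt2-gated cells and Hsd17b7 (1.29) after it, and most points of Hapln1-gated cells lie below 0.

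Branches, regulation and uptake were compared by lists, to be read against 37.7% of all genes higher and 35.8% lower in Tnnt2-gated cells and 24.9% higher and 21.2% lower in Hapln1-gated cells. Of 11 genes that use the intermediates of the members for prenyl groups, dolichol and ubiquinone, 5 were higher and 3 lower in Tnnt2-gated cells, with Pdss1 of ubiquinone synthesis (1.28) and Rabggtb, a subunit of the geranylgeranyl transferase for Rab proteins (0.68), with Nus1 of dolichol synthesis lower (-0.57). In Hapln1-gated cells 1 was higher and 5 lower, with Pdss1 at -0.45. Of 15 tested genes of SREBP regulation and sterol handling, 8 were higher and 4 lower in Tnnt2-gated cells, and 6 were higher and 5 lower in Hapln1-gated cells, with a median of 0.01. Srebf2, which encodes SREBP-2 and was named after its values were seen, was higher in Tnnt2-gated (0.58) and lower in Hapln1-gated cells (-0.67), whereas Soat1, which esterifies cholesterol for storage, was lower in Tnnt2-gated cells (-2.17) and higher in Hapln1-gated (0.85) and Upk3b-gated cells (1.47). Of 9 fatty acid genes, 4 were higher and 2 lower in Tnnt2-gated cells, led by Acss2 (2.23), and none was higher and 6 were lower in Hapln1-gated cells, led by Scd1 (-0.95). Scd1 was also lower in Cdh5-gated (-1.95) and higher in Crabp1-gated cells (1.92), at levels of 0.73 and 6.46 CPM. Idi2, the paralog of Idi1, was too low to be tested.

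The genes most like the 9 members over the 20 sums, outside every list used here, were Pkm (r = 0.91), Car14 (0.90), D030025E07Rik (0.89), B130024G19Rik (0.87), Pfkl (0.85), Arl2 (0.85), Irx3 (0.84), Nme3 (0.84), Ywhae (0.84) and Mycl (0.84). Pkm averaged 952 ± 91.3 CPM in Tnnt2-gated, 868 ± 122 CPM in Upk3b-gated and 514 ± 75.6 CPM in Hapln1-gated cells. Car14 averaged 43.9 ± 3.06 CPM in Tnnt2-gated and 2.58 ± 0.81 CPM in Hapln1-gated cells. Class means were low for D030025E07Rik (0.04 to 5.07 CPM), B130024G19Rik (0.27 to 1.07 CPM), Mycl (0.41 to 5.67 CPM) and Nme3 (2.22 to 5.00 CPM). Their r values therefore rest on low counts.

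Cycling cells were compared with the rest, and a cell was called cycling when 20 G2/M genes together passed a threshold of 7.53 UMIs per 10000. The list marks G2/M, so the rest can include dividing cells in other phases. Sums per library, class and state were compared in Tnnt2-, Cdh5-, Hapln1- and Crabp1-gated cells, with library and class as a block and 12011 genes tested. The differences were small. Mvk (0.15 ± 0.04, SE, adjusted p = 0.00136) and Sqle (0.15 ± 0.04, adjusted p = 0.00128) were higher in cycling cells. Pmvk (-0.18 ± 0.03, adjusted p = 3.18e-05), Fdft1 (-0.18 ± 0.04, adjusted p = 0.00148) and Mvd (-0.14 ± 0.05, adjusted p = 0.0373) were lower, as was Cyp51 (-0.22), and the call of Mvd was lost without Wt2, Ho1 or Ho2. Hmgcs1, Idi1, Fdps and Lss did not pass, with log2 fold changes of -0.09, 0.12, 0.05 and -0.17, but without Wt1 Hmgcs1 was called lower (-0.121, adjusted p = 0.0145). Among all genes, 22.4% were called higher and 33.9% lower, and Lbr, of the enzymes after lanosterol, had the largest change (1.05). With cycling cells left out, Pmvk (0.85), Mvd (0.87) and Idi1 (0.86) were still higher in Tnnt2-gated cells and Idi1 lower in Hapln1-gated cells (-0.93), while the members called higher in Upk3b-gated cells numbered 3 in place of 6. Lss lost its call in Hapln1-gated (-0.49, adjusted p = 0.0912) and Cdh5-gated cells (-0.41, adjusted p = 0.0795), and Pmvk gained one in Cdh5-gated cells (-0.13, adjusted p = 0.0349).

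**Figure D4:**
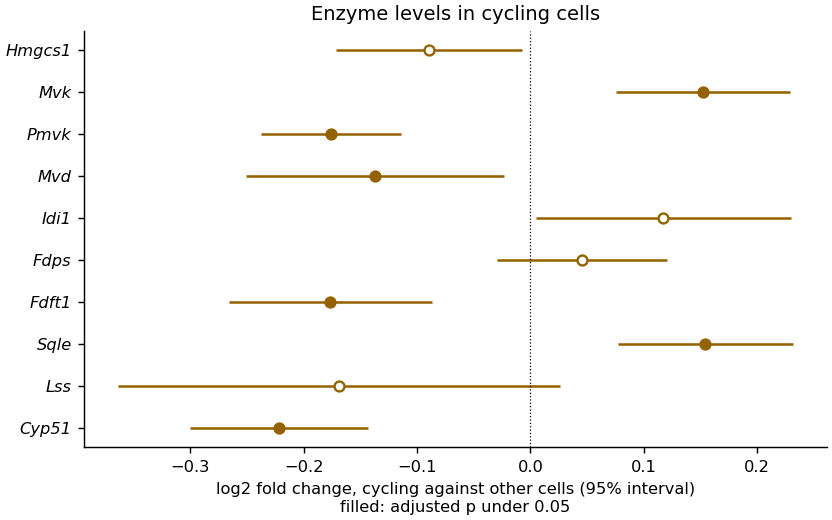
Log2 fold change of the 9 enzymes and Cyp51 (vertical axis) between cycling and other cells of the same library and class (horizontal axis), with 95% intervals as lines and filled points where the adjusted p-value is under 0.05. Called members lie within 0.18 of 0 on the log2 scale, with Mvk and Sqle right and Pmvk, Fdft1 and Mvd left of it.

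Ho and Wt libraries were compared within each class to ask whether the enzymes upstream of the altered Cyp51 differed. Cyp51 itself had 79.2 and 74.9 CPM in Tnnt2-gated cells of Wt1 and Wt2 and 74.4 and 81.7 CPM in Ho1 and Ho2, a log2 fold change of 0.00 with a 95% interval from -0.20 to 0.20. A single substitution is not seen in UMIs counted per gene, so the level of Cyp51 does not check the genotype labels. The test was edgeR's quasi-likelihood test on 2 Ho against 2 Wt sums, adjusted over all genes of the class.

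In Tnnt2-gated cells Hmgcs1 had 102 and 91.0 CPM in Wt1 and Wt2 and 103 and 115 CPM in Ho1 and Ho2. Sqle had 29.7 and 29.9 CPM in Wt and 32.7 and 35.7 CPM in Ho libraries, and Idi1 112 and 109 CPM against 128 and 117 CPM. The lower Ho library exceeded the higher Wt library for these 3 genes and for Fdps and Lss, 5 of the 9 members, and no member had both Ho libraries below, where 22.2% and 15.6% of all genes tested lay above and below. None of the members was called, and neither was any other of the 14694 genes tested (0%), with 943 genes and no member at an unadjusted p under 0.05. DESeq2 called 19 genes and none of the 8 members to which it gave an adjusted p (all but Lss). The log2 fold changes were 0.17 ± 0.10 (SE) for Hmgcs1, 0.18 ± 0.09 for Sqle, 0.13 ± 0.08 for Idi1, 0.10 ± 0.09 for Fdps and 0.31 ± 0.18 for Lss, with adjusted p-values of 0.801, 0.781, 0.81, 0.86 and 0.801. Their 95% intervals reached 0.38, 0.39, 0.32, 0.30 and 0.73, so the spread between libraries leaves room for differences of these sizes. Mvk, Pmvk, Mvd and Fdft1 lay between -0.04 and 0.04. Erythroid markers stood at 4.65, 10.1, 301 and 16.5 CPM over 7 genes in these cells of Wt1, Wt2, Ho1 and Ho2. They were higher in both Ho libraries, but by far the most in Ho1. Hba-x led them, and none of the 7 was at 0. Macrophage markers were lower in both Ho libraries, at 3.21, 5.67, 1.44 and 1.28 CPM over 6 genes. Depth and mitochondrial share were also higher in both Ho libraries, at medians of 12013, 16963, 17079 and 17961 UMIs per cell and 1.35, 1.45, 1.57 and 2.09% mitochondrial UMIs in the same order. The part of these measures in the result was not tested.

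In Upk3b-gated cells Hmgcs1 had 75.0 and 86.5 CPM in Wt1 and Wt2 and 101 and 102 CPM in Ho1 and Ho2. Sqle had 32.9 and 36.9 CPM against 41.6 and 50.5 CPM, and Idi1 73.6 and 83.6 CPM against 95.5 and 98.7 CPM. All 9 log2 fold changes were above 0, with a median of 0.22 against 0.00 over all genes tested. This count of 9 did not hold without Ho2 (Lss -0.66, Mvk -0.11), without Wt2 (Lss -0.19) or with a looser gate (Mvd -0.05). For 7 members, all but Mvk and Lss, the Ho values were all above the Wt values, where 17.3% of all genes did. No member was called, against 0.0577% of 10392 genes (6 genes). Hmgcs1 (0.31 ± 0.12, SE), Sqle (0.39 ± 0.17) and Idi1 (0.29 ± 0.12) had unadjusted p-values of 0.0255, 0.0339 and 0.0371 and adjusted p-values of 0.869, 0.907 and 0.927 in this fit, where 536 of all 10392 genes had an unadjusted p under 0.05. Pmvk stood at 0.25, Fdps at 0.22 and Fdft1 at 0.17, and Cyp51 at 0.01 (95% interval -0.27 to 0.29). Erythroid markers stood at 4.17, 6.67, 20.96 and 8.46 CPM in these cells of Wt1, Wt2, Ho1 and Ho2. The 9 heart muscle markers, led by Myl7, none of them at 0, also summed higher in both Ho libraries, at 2983, 2615, 4266 and 3565 CPM in Wt1, Wt2, Ho1 and Ho2, and the median depth was higher in both as well, at 16585, 21903, 22571 and 22377 UMIs per cell. Their part in the result was not tested. The sums rest on 130, 183, 122 and 199 cells.

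In Cdh5-gated cells the signs were mixed. Fdps (0.09) and Sqle (0.20) had the Ho values above the Wt values, with Sqle at 26.0 and 27.6 CPM against 30.2 and 31.6 CPM, and Fdft1 (-0.10) and Lss (-0.36) had both below. Of all genes, 17.8% lay above and 17.3% below. In Hapln1-gated cells Fdps (0.08) and Pmvk (0.05) lay above and no member below, against 16.8% and 18.3% of all genes, and the largest of the 9 values was 0.26 for Lss (95% interval -0.45 to 0.98). In Crabp1-gated cells the libraries of the genotypes overlapped for all 9 members, against 13% of genes above and 15.8% below, and the log2 fold changes ran from -0.41 to 0.12 with intervals as wide as -1.73 to 0.91 for Idi1. The value of Idi1, -0.41, turned to 0.22 without Wt1 and 0.07 without Ho1 and was -1.76 without Ho2. No member was called by edgeR in these 3 classes, and none had an unadjusted p under 0.05. DESeq2 called none either, but gave no adjusted p for Mvk, Mvd, Sqle and Lss in Hapln1-gated cells. Of all genes, 0% were called in Cdh5-gated (677 of 13366 at an unadjusted p under 0.05), 0.0238% in Hapln1-gated (3 of 12587 genes, Rps27rt, Wdcp and Wdr89) and 0% in Crabp1-gated cells (150 of 11683). Erythroid markers were higher in both Ho libraries in Cdh5-gated cells as well, at 84.8, 71.1, 298 and 122 CPM in Wt1, Wt2, Ho1 and Ho2, and in Hapln1-gated cells, at 43.9, 49.0, 73.7 and 66.3 CPM. Hbb-y led both sums. The Hapln1-class markers were higher in both Ho libraries in Cdh5-gated cells (626, 564, 677 and 693 CPM over 8 genes, led by Hapln1), as was the share of Hapln1-positive cells (75.0, 76.3, 86.0 and 83.5%). The 6 epicardial markers, led by Tcf21, were higher in both in Cdh5-gated (11.9, 12.4, 14.2 and 13.9 CPM) and Hapln1-gated cells (85.9, 92.3, 95.7 and 103.6 CPM), and the 8 Crabp1-class markers, led by Pdgfra, were lower in Hapln1-gated cells (114, 109, 96.1 and 99.1 CPM). Median depth was higher in both Ho libraries in Cdh5-gated cells (13575, 15981, 16478 and 16667 UMIs per cell) and the mitochondrial share in Hapln1-gated cells (1.04, 1.08, 1.097 and 1.44%). In Crabp1-gated cells erythroid markers (4.74, 5.63, 22.1 and 7.91 CPM), the 8 endothelial markers (78.9, 87.7, 122 and 109.5 CPM), median depth (10993, 11525.5, 11941 and 14156 UMIs per cell) and the mitochondrial share (0.900, 1.02, 1.05 and 1.19%) were all higher in both Ho libraries. The 20 G2/M genes summed lower in both (2655, 2240, 1962 and 2119 CPM), with a median log2 fold change of -0.35. The part of these measures was not tested.

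**Figure D5:**
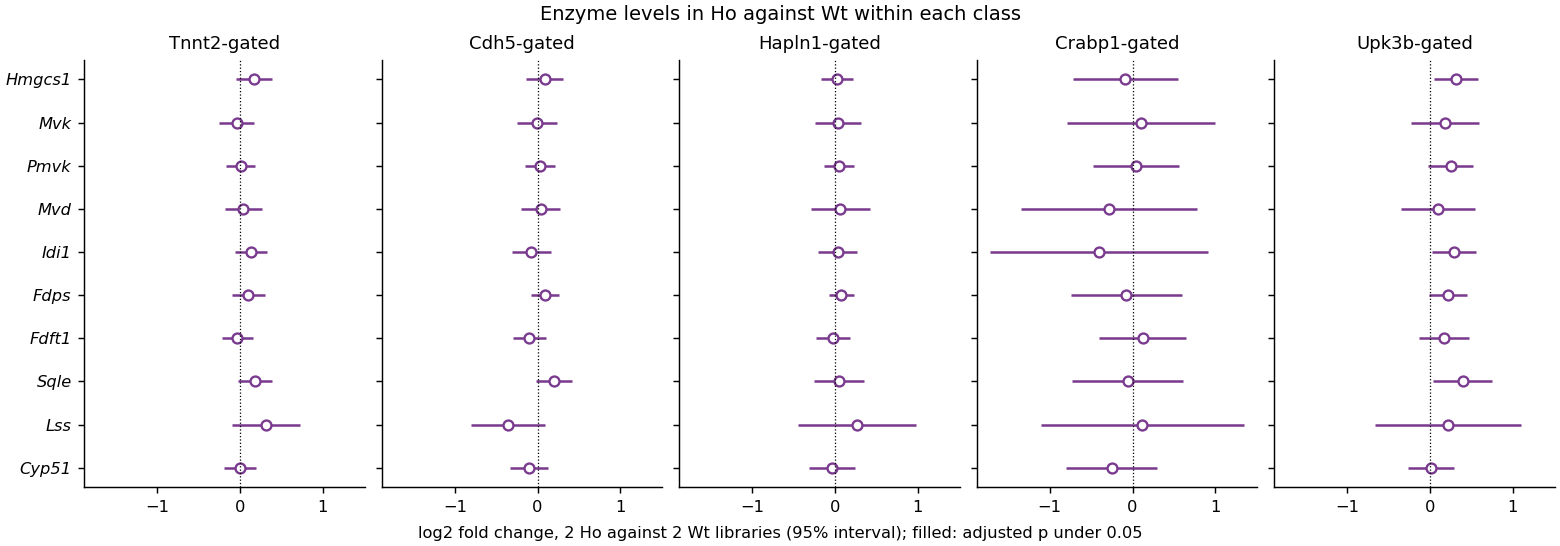
Log2 fold change of the 9 enzymes and Cyp51 (vertical axis) in 2 Ho against 2 Wt libraries within each gated class (horizontal axis), with 95% intervals as lines and filled points where the adjusted p-value is under 0.05. No point is filled. The intervals are narrowest for most members in Tnnt2- to Hapln1-gated cells and widest in Crabp1-gated cells, and all 9 enzymes lie right of 0 in Upk3b-gated cells.

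A test of whether the genotype difference varied between the 5 classes called none of the 9 members and 0% of 14171 genes (288 at an unadjusted p under 0.05), and the members' unadjusted p-values ran from 0.304 to 0.907 in this edgeR F test, so the values in Upk3b-gated cells were not shown to differ from those of the other classes. In sums over whole libraries, where the make-up of cells and the level per cell cannot be told apart, no member and 0% of 16978 genes were called (786 at an unadjusted p under 0.05), and the members ran from -0.03 for Fdft1 to 0.19 for Idi1. These values moved with single libraries. Without Wt1 Idi1 was 0.33, Hmgcs1 0.27 and Lss 0.35, and without Ho2 Lss was -0.25 and Mvk -0.17.

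Neighbouring genes of the pathway were compared between the genotypes by list. No gene of the lists for entry, lanosterol to cholesterol, isoprenoid branches, SREBP regulation or fatty acids was called in any class. In Tnnt2-gated cells the gene with the lowest unadjusted p of the SREBP list was Insig1, which retains SREBP in the endoplasmic reticulum, at 17.0 and 18.7 CPM in Wt1 and Wt2 and 22.0 and 25.8 CPM in Ho1 and Ho2 (0.40, unadjusted p = 0.00644, adjusted p = 0.623 in edgeR). Of all genes, 51.0% were above 0 there. Of the SREBP list 12 of 15 were, with 3 at an unadjusted p under 0.05. All 9 fatty acid genes were above 0, between 0.03 and 0.22, with Acly lowest in p (adjusted p = 0.778), and 7 of the 10 later enzymes were. Of the 11 branch genes 3 were above 0, with Ggps1 at 0.14 (adjusted p = 0.804). In Upk3b-gated cells 3 of the 11 branch genes, 7 of the 10 later enzymes, 8 of 13 tested SREBP genes and 6 of 8 tested fatty acid genes were above 0, against 49.1% of all genes, and Acat2 stood at -0.26. The lowest p of these lists belonged to Hsd17b7, with 10.2 and 7.95 CPM in Wt1 and Wt2 and 15.7 and 19.98 CPM in Ho1 and Ho2 (1.03, unadjusted p = 0.00152, adjusted p = 0.417 in edgeR). In Cdh5-, Hapln1- and Crabp1-gated cells 4, 5 and 3 of the 10 later enzymes and 5, 4 and 5 of the 11 branch genes were above 0. For the SREBP list these counts were 10 of 15, 9 of 14 and 10 of 14 tested, and for the fatty acid list 7, 8 and 5 of 9. Of all genes, 51.0, 50.6 and 48.9% were above 0 in these 3 classes.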

How the data were processed

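The authors deposited UMI counts per gene and barcode for each of the 4 libraries, made with Cell Ranger 6.1.1 on mm10, and used Seurat 4.1.0 per the labels and the study's methods. These counts are not normalized. Barcodes with 500 to 50000 UMIs, 500 to 6000 genes and at most 20% mitochondrial UMIs were kept, and the barcodes with the highest Scrublet scores (scanpy 1.11.5) were dropped as doublets, in a share that grew with the number of cells. A class needed at least 2 UMIs of its marker and a level over the marker's threshold. Counts were summed per library and class, scaled by TMM and tested with edgeR 4.0.16 in R 4.3.3 by the quasi-likelihood test, with Benjamini-Hochberg adjustment and calls at 0.05. The study tested single cells, which are not replicates here. A permutation test of 2 against 2 libraries cannot go below p = 0.333. Alternatives were RLE factors, DESeq2 1.42.0, other filters, gates and cell limits, doublets kept, blocks and leaving out each library. The script was tested on simulated data.

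Named genes were the 9 members and Cyp51, up to 3 called genes with the largest absolute change per list and comparison or otherwise the gene with the lowest p-value, and the 10 genes most like the members. A few further list genes (Srebf2, Scd1, Sc5d and Lbr among them) were named after their values were seen. Some genes of the lists are not reported here. Members, lists and tests were chosen with earlier results of these data known.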

Additional observations from a re-analysis of the deposited data

Results flagged for a closer look

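Epcam-gated epithelial cells entered no test, because Ho1 had none. In Ho2, 7 of the 9 members lay above both Wt libraries and none below, where 31.9% of 12022 genes lay above and 35% below, and these 7 are given here as values of cells that no test used. Idi1 stood at 153 CPM in Ho2 against 86.7 and 42.4 CPM in Wt1 and Wt2, and Fdps at 377 CPM against 281 and 122 CPM. Hmgcs1 stood at 136 CPM against 100 and 53.0 CPM, and Sqle at 56.7 CPM against 25.4 and 22.7 CPM. Mvk had 36.6 CPM in Ho2 against 31.3 and 17.7 CPM in Wt1 and Wt2, and Mvd had 32.6 CPM in Ho2. Fdft1 lay only slightly above, at 56.9 CPM in Ho2 against 54.4 and 53.0 CPM. Pmvk and Lss did not lie above both Wt libraries. For Sqle, Fdft1 and Mvd (17.1 and 16.7 CPM in Wt) the Wt libraries lay close together, whereas for Hmgcs1, Idi1 and Fdps they lay far apart. The median depth was 9661, 7580.5 and 14035 UMIs per cell in Wt1, Wt2 and Ho2. In the same order the 8 Crabp1-class markers, led by Crabp1, summed to 218, 134 and 39.6 CPM in these cells. The share of Crabp1-positive cells was 28.3, 15.5 and 4.82%. The part of these measures in the values was not tested, and 1 Ho library allows no test.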

How the results depend on the processing

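No member was called between Ho and Wt under any alternative that gave it an adjusted p, which DESeq2 did not for Lss in Tnnt2-gated and for Mvk, Mvd, Sqle and Lss in Hapln1-gated cells. Counts of all genes called between them were unstable. Without a filter on low counts they were 231 in Tnnt2-, 201 in Cdh5-, 153 in Hapln1-, 109 in Crabp1- and 102 in Upk3b-gated cells, and with DESeq2 they were 19, 22 and 14 in the first 3 and 21 in whole libraries. With at least 10 counts in every sum 3 were called in Upk3b-gated cells, and with the strict gate 8 in Hapln1- and 2 in Upk3b-gated cells. Leaving out each library gave 1 to 214 in Tnnt2-, 0 to 54 in Cdh5-, 5 to 103 in Hapln1-, 0 to 1 in Crabp1- and 22 to 54 in Upk3b-gated cells and 0 to 5 in whole libraries. Same-numbered libraries did not deviate together (r from -0.47 to 0.00). With 2 libraries per genotype this cannot show whether same-numbered libraries shared a litter or day, which the labels do not state. With the replicate block 1, 14, 6 and 22 genes were called in Tnnt2-, Cdh5-, Hapln1- and Upk3b-gated cells, and with a crossed block, added after seeing the data, 125 in Crabp1-gated cells and 72 in whole libraries.

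Between classes, at least 10 counts in every sum left fewer genes to test and called 2235 higher and 2255 lower in Tnnt2-, 1842 and 1763 in Cdh5-, 1566 and 1407 in Hapln1-, 1692 and 1911 in Crabp1- and 1456 and 1727 in Upk3b-gated cells. With only cells under the G2/M threshold, an alternative added after seeing the data, 2457 genes were lower in Crabp1- and 2088 in Upk3b-gated cells. Members called lower in Tnnt2-gated cells numbered 0 under both of these settings and 0 to 1 without each library, those lower in Cdh5-gated cells 2 to 5, and those higher and lower in Upk3b-gated cells 2 to 6 and 0 to 2, or 3 and 1 under the G2/M threshold. The cause was not tested.

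Several signs turned, none of them of a called value. Without each library in turn, between Ho and Wt in Tnnt2-gated cells, Fdft1 ran from -0.1002 to 0.0350, Mvk from -0.1002 to 0.0166, Pmvk from -0.0363 to 0.0559 and Mvd from -0.0385 to 0.133. In Crabp1-gated against other cells Idi1 ran from -0.145 to 0.329, Mvd from -0.201 to 0.313, Sqle from -0.0428 to 0.214 (each lowest without Wt1) and Pmvk from -0.0514 to 0.0180. In Tnnt2-gated against other cells Lss ran from -0.0571 to 0.105 and Sqle from -0.0192 to 0.0383, and in Cdh5-gated cells Mvk ran from -0.0590 to 0.0219. With the loose gate Fdps was -0.00595 between Ho and Wt in Hapln1-gated and Mvd -0.0535 in Upk3b-gated cells. In Crabp1-gated cells under the G2/M threshold Sqle was -0.00865 and Pmvk 0.116, and Pmvk was 0.00855 without the Ho1 sum. Sqle in Tnnt2-gated against other cells was 0.00686 with RLE factors, 0.0626 at 10 counts, 0.00616 with the loose gate, 0.0326 with no filter, 0.00204 with no library block and 0.0403 under the G2/M threshold. Fdps between cycling and other cells was -0.0589 at 2 times the threshold. Of 32 further values of members between Ho and Wt, 28 turned sign under at least one alternative and 0 were ever called, among them in Upk3b-gated cells Lss (-0.661 without Ho2, -0.188 without Wt2) and Mvk (-0.108 without Ho2) and in Hapln1-gated cells Lss (-0.106 without Wt1). The strict gate was not run for Crabp1-gated cells or the class comparisons, as Ho1 then held 29 cells, under the minimum of 30. Depth limits Lss most, with 1 UMI in Crabp1-gated cells of Ho1.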

Other observations

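Cells in no class numbered 5933, of which 5574 were positive for no marker, 238 for more than 1 of Tnnt2, Cdh5, Upk3b and Epcam, and 121 for Hapln1 and Crabp1 together. They had a summed level of the 9 members of 701 and 652 CPM in the Wt libraries and 560 and 817 CPM in Ho1 and Ho2. Fdps led there too, at 294, 275, 219 and 351 CPM, and the genotypes overlapped.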
